A study of Mus musculus with 20 samples.

Results

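Voltage-gated sodium channels were followed in the dorsal root ganglia (DRG) that supply a cut sciatic nerve, in 9 genes: the pore-forming alpha subunits Scn1a, Scn2a, Scn3a, Scn8a, Scn9a, Scn10a and Scn11a and the auxiliary beta subunits Scn2b and Scn4b. The members were taken by name as sodium channel subunits and were found in the count table by their Ensembl identifiers, 9 of 78258 genes. All 9 passed the filter on low counts, which left 28564 genes for testing. The question put to them was how Scn3a, the alpha subunit usually linked to injured sensory neurons, compared with the nociceptor channels in the 4 groups formed by genotype and side.

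DRG hold the cell bodies of sensory neurons. A voltage-gated sodium channel is 1 large alpha subunit that forms the pore, joined by small beta subunits that tune its gating and anchoring; it carries the inward current of the action potential. In DRG, Scn9a, Scn10a and Scn11a (NaV1.7, NaV1.8 and NaV1.9) are known as the channels of nociceptors, the neurons that sense painful stimuli, Scn1a and Scn8a are typical of larger, faster conducting neurons, and Scn3a is a channel of the embryonic nervous system whose return after nerve injury is known from rodent DRG.

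The ganglia came from 10 male mice that had all received tamoxifen, 100 mg/kg by intraperitoneal injection once a day for 5 days, at 17 weeks of age. The knockout mice (cKO, 5 mice: H61, H64, H95, H99 and H100) were Ahr fl/fl with Thy1CRE-ERT2/EYFP, a tamoxifen-activated Cre recombinase driven by the Thy1 promoter together with a yellow fluorescent protein, so that Ahr, which encodes the aryl hydrocarbon receptor, is targeted in Thy1-expressing cells and not in the other cells of the ganglion. The controls (5 mice: H62, H63, H65, H96 and H97) are described as Ahr f/f or f/+ and are called wild type in the sample titles. The library names of all 5 control mice carry the letters ff. A sciatic nerve was transected 4 weeks after tamoxifen and the L4-L6 DRG were taken 1 day later, the ipsilateral ganglia as 1 library and the uninjured contralateral ganglia of the same mouse as another. Every library shares a time window of 2 to 4 h in zeitgeber time, counted from lights on. One label field names a spinal cord injury, while the protocol describes the nerve transection; the protocol was followed. Values per library below are in the order of the mice just given.

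Libraries held 76.2 to 118.5 M counts (M, mega). The label checks were Atf3, a transcription factor induced by axon injury, which was higher on the lesioned side by 5.23 (log2) in control and 5.50 in cKO mice, and the targeted gene Ahr, with 24.2 ± 2.10 CPM in control and 20.4 ± 0.536 CPM in cKO contralateral libraries (SD, n = 5; edgeR adjusted p = 0.103) and 34.4 ± 2.86 and 31.9 ± 2.94 CPM ipsilaterally. Neither difference in Ahr passed the test, so this check on whole-gene counts of whole ganglia does not show the loss of Ahr. CPM are counts per M counts after TMM scaling for depth and composition. Markers of sensory neurons summed to 10534 to 11907, 10517 to 11754, 10483 to 12064 and 10064 to 11149 CPM in control contralateral, control ipsilateral, cKO contralateral and cKO ipsilateral libraries, so the labelled tissue carried its defining markers in all 20. Among the cKO contralateral libraries H64 had the highest and H99 the lowest summed markers of fibroblasts, macrophages and neutrophils; these libraries are left out in turn beside the results they touch. Of 6 spinal cord markers Chat, Slc6a5 and Mog had at most 14, 10 and 20 counts in any library, while Gfap had 37 to 1173, Aqp4 1018 to 1787 and Slc17a6, a glutamate transporter that sensory neurons also express, 19076 to 40139. Of the 4 tested, 3 rose after injury in control mice (Gfap, Mog and Slc17a6) and 2 in cKO mice (Gfap and Slc17a6); their part in the results was not tested. In whole ganglia, fewer cells of a type and less RNA per cell cannot be told apart.

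The alpha subunits differ at a residue in the pore loop of the first domain that is known to set sensitivity to the neurotoxin tetrodotoxin: an aromatic residue in the sensitive channels and serine in the resistant NaV1.8 and NaV1.9. The codon is shown because it divides the members by class, and the shares of alpha transcripts below use that division. In 33 bases around it, for 6 of the 7 alpha members, read from the GENCODE M21 transcripts on GRCm38 and always within 1 exon, exon 9 of the transcript, the codon of this residue is in capitals.
Scn2a: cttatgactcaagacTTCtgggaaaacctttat
Scn3a: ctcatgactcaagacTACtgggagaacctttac
Scn8a: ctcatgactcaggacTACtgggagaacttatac
Scn9a: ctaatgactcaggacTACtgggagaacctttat
Scn10a: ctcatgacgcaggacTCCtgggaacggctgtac
Scn11a: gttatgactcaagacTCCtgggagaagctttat
The window of Scn2a has the codon of phenylalanine, those of Scn3a, Scn8a and Scn9a that of tyrosine, and those of Scn10a and Scn11a that of serine. On GRCm38 the window of Scn3a is at chr2:65521798-65521830 and that of Scn9a at chr2:66548986-66549018, both on the minus strand. That of Scn10a is at chr9:119666372-119666404 and that of Scn11a at chr9:119805665-119805697, also on the minus strand. By position, Scn3a (chr2:65457118-65567627), Scn2a, Scn1a and Scn9a (chr2:66480080-66634962) lie together on chromosome 2 with Scn7a, and Scn10a (chr9:119608456-119719322) and Scn11a (chr9:119753759-119825456) lie side by side on chromosome 9. Scn2b and Scn4b are neighbours elsewhere on chromosome 9, at chr9:45117782-45130070 and chr9:45138395-45154152, and Scn8a is alone on chromosome 15. In the count table the members are listed as ENSMUSG00000064329.15 (Scn1a), ENSMUSG00000075318.14 (Scn2a), ENSMUSG00000057182.17 (Scn3a), ENSMUSG00000023033.15 (Scn8a), ENSMUSG00000075316.14 (Scn9a), ENSMUSG00000034533.11 (Scn10a), ENSMUSG00000034115.11 (Scn11a), ENSMUSG00000070304.14 (Scn2b) and ENSMUSG00000046480.7 (Scn4b).

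To compare levels between genes, CPM were divided by the length of the merged exons in kb. In control contralateral ganglia Scn10a had 127 ± 7.42 CPM per kb, Scn4b 101 ± 7.71 and Scn11a 86.5 ± 5.79 (SD, n = 5), the highest levels among the members. Scn9a followed at 34.8 ± 1.60 CPM per kb. Scn2b (16.5 ± 0.729), Scn1a (15.9 ± 1.23) and Scn8a (15.7 ± 1.64) did not differ in level beyond their spread, and their order changed when the longest coding transcript was taken as the length. Scn2a, at 0.699 ± 0.0631, and Scn3a, at 0.491 ± 0.0281 CPM per kb, had the lowest levels of the 9. The level of Scn3a rested on 341 to 724 counts per library and that of Scn10a on 61632 to 114203.

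**Figure D1:**
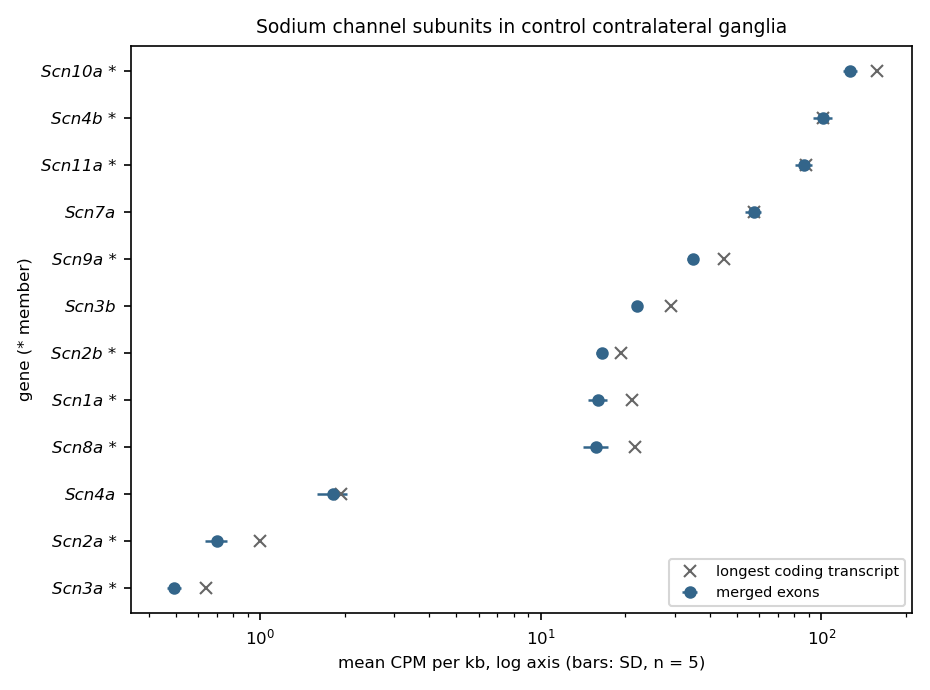
Levels of 12 sodium channel subunits in control contralateral ganglia, in CPM per kb on a log axis; circles are means over 5 libraries with merged exons as the length and bars their SD, crosses the means with the longest coding transcript. Scn10a and Scn4b are at the upper end and Scn2a and Scn3a at the lower end, below 1 CPM per kb in means with merged exons.

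Taken as shares of the 10 alpha subunits by CPM per kb, the tetrodotoxin-resistant channels Scn10a and Scn11a made up 62.4% ± 0.513 of the alpha transcripts in control contralateral, 63.005% ± 0.729 in control ipsilateral, 61.1% ± 0.973 in cKO contralateral and 63.3% ± 1.11 in cKO ipsilateral libraries (SD, n = 5). The share of Scn3a was 0.144% ± 0.00980, 0.145% ± 0.0148, 0.161% ± 0.0321 and 0.158% ± 0.0102 in the same groups. These shares describe transcripts of whole ganglia and were not tested. The share of Scn1a in control mice was 4.66% ± 0.184 contralaterally and 3.92% ± 0.166 ipsilaterally, and that in cKO mice 5.05% ± 0.314 and 3.77% ± 0.234; its range on the lesioned side, 3.71% to 4.11% and 3.55% to 4.06%, was below that of the contralateral side, 4.35% to 4.83% and 4.66% to 5.50%.

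The response to nerve transection was asked first in control mice. The nociceptor channels Scn9a and Scn10a, the large-fibre channel Scn1a, Scn2a and both beta subunits fell on the lesioned side, by 12.1% to 27.0%, and no member rose. That is 6 of 9 members called lower at an adjusted p under 0.05 (edgeR quasi-likelihood test, Benjamini-Hochberg adjusted over all 28564 genes), where 16.0% of all tested genes were called lower and 29.9% in either direction. All 9 fold changes were negative, with a median log2 fold change of -0.25, against -0.0047 over all tested genes. In the same contrast the markers of macrophages (8, median 0.46), neutrophils (4, median 0.61), fibroblasts (6, median 0.32) and endothelium (5, median 0.38) all had positive log2 fold changes, with Mrc1 and Flt1 called. Of the markers of Schwann cells 5 of 8 were positive (median 0.05), of skeletal muscle 4 of 5 (0.54), of erythroid cells 2 of 3 (0.03) and of lymphocytes 1 of 5 (-0.28), none called; the part of these markers in the result was not tested. The count depended on single mice: it was 3 (Scn1a, Scn9a and Scn2b) without H96 or without H97.

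Scn9a, the gene of the NaV1.7 channel that amplifies small depolarisations of nociceptor endings, stood at 446, 439, 449, 416 and 472 CPM in the contralateral and 395, 358, 369, 345 and 345 CPM in the ipsilateral libraries of control mice. Every ipsilateral library was below every contralateral one, for a log2 fold change of -0.29 (SE 0.0685; adjusted p = 0.00228, n = 5), and it passed the test under all 18 alternative settings. Of its merged exon bases, 180 (1.41%) overlap the antisense gene Gm13629; whether the counting used strand is not given in the sources used here.

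Scn10a, which encodes NaV1.8, the carrier of most of the current in the nociceptor action potential upstroke, stood at 978, 989, 1029, 948 and 1101 CPM in the contralateral and 933, 887, 914, 855 and 838 CPM in the ipsilateral libraries of control mice. The groups did not overlap, with the lowest contralateral library, H96, just above the highest ipsilateral one, H62. Scn10a fell by 0.19 on the log2 scale (SE 0.0668; adjusted p = 0.0375). The call was lost without H63, H65, H96 or H97, with log2 fold changes of -0.18, -0.18, -0.19 and -0.12, and also with no filter on low counts (-0.18, adjusted p = 0.135).

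Scn11a, encoding NaV1.9, a persistent current near the resting potential, stood at 516, 489, 536, 470.1 and 555 CPM in the contralateral and 482, 429, 461, 468 and 413 CPM in the ipsilateral libraries of control mice. The groups overlapped, and H96 was nearly level between its sides. Its log2 fold change of -0.19 (SE 0.0848; adjusted p = 0.106) was not past the threshold; in all 5 mice the ipsilateral value was the lower. It was called in 4 of 18 alternatives: without H99 (-0.18, adjusted p = 0.0368), with only the libraries compared (adjusted p = 0.0239) and by limma on FPKM with both pseudocounts (adjusted p = 0.0469 and 0.0478). Without H97 it was -0.11 (adjusted p = 0.428).

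Scn3a, the channel linked to the embryo and to injured neurons, stood at 6.64, 5.93, 5.87, 5.84 and 6.32 CPM in the contralateral and 6.33, 5.52, 5.25, 4.50 and 5.32 CPM in the ipsilateral libraries of control mice. The groups overlapped and all 5 mice were lower on the lesioned side. The log2 fold change was -0.18 (SE 0.0960; 95% interval -0.39 to 0.02; adjusted p = 0.165), so neither a rise nor a fall passed the test at 1 day, and the upper end of the interval corresponds to a rise of 1.06%. Under the 18 alternatives its adjusted p was 0.0655 to 0.401.

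Scn1a, encoding NaV1.1, a fast current of myelinated mechanoreceptors and proprioceptors, stood at 163, 178, 188, 165 and 194 CPM in the contralateral and 129.9, 134, 131, 126 and 128 CPM in the ipsilateral libraries of control mice. The ipsilateral libraries were all below the contralateral ones. Scn1a had the lowest fold change of the 9, -0.45 on the log2 scale (SE 0.0777; adjusted p = 1.4e-04), a fall to 27.0% below the contralateral level. It passed the test under all 18 alternatives, with -0.22 on log2(FPKM + 1), a scale that compresses low values.

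Scn8a, whose channel NaV1.6 is the main one of nodes of Ranvier, stood at 224, 250.4, 263, 221 and 282 CPM in the contralateral and 209, 218, 199.7, 205 and 211 CPM in the ipsilateral libraries of control mice. The groups did not overlap. The log2 fold change of -0.25 (SE 0.0957; adjusted p = 0.0578) missed the threshold, and with the mouse as a replicate block it was called (-0.24, adjusted p = 0.0219). It was called in 8 of 18 alternatives, among them those without H95 or H99 (adjusted p = 0.0426 and 0.0183).

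Scn2a, best known from the brain, stood at 8.38, 8.42, 8.16, 9.89 and 9.65 CPM in the contralateral and 6.70, 7.65, 7.96, 7.18 and 7.54 CPM in the ipsilateral libraries of control mice. The groups did not overlap, although H65 differed little between its sides. Scn2a fell by 0.27 on the log2 scale (SE 0.0728; adjusted p = 0.00795), and the call was lost without H96 (-0.20, adjusted p = 0.0736) or H97 (-0.23, adjusted p = 0.0525). On log2(FPKM + 1) and log2(FPKM + 0.1) its change was -0.0147 and -0.10, both called by limma.

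Scn2b, a beta subunit that is bound to the alpha subunit by a disulfide bond, stood at 71.3, 76.0, 78.8, 80.2 and 77.3 CPM in the contralateral and 59.1, 62.3, 67.7, 68.6 and 64.7 CPM in the ipsilateral libraries of control mice. The groups did not overlap, and the 5 mice moved by similar amounts, -0.29 to -0.22 on the log2 scale, for a fitted log2 fold change of -0.25 (SE 0.0625; adjusted p = 0.00398), called under all 18 alternatives.

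Scn4b, the beta subunit known for resurgent current, stood at 448, 519.7, 511, 487 and 550.2 CPM in the contralateral and 429, 459, 444, 435 and 445 CPM in the ipsilateral libraries of control mice. The groups overlapped, with the contralateral library of H62 inside the ipsilateral range. Scn4b fell by 0.19 on the log2 scale (SE 0.0617; adjusted p = 0.0267), and the call was lost without H63, H65, H96 or H97, with log2 fold changes of -0.17, -0.17, -0.18 and -0.14, and also with no filter (-0.18, adjusted p = 0.0979). In all, 6 members did not overlap between the sides (Scn1a, Scn2a, Scn8a, Scn9a, Scn10a and Scn2b), where 23.6% of all tested genes did not.

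**Figure D2:**
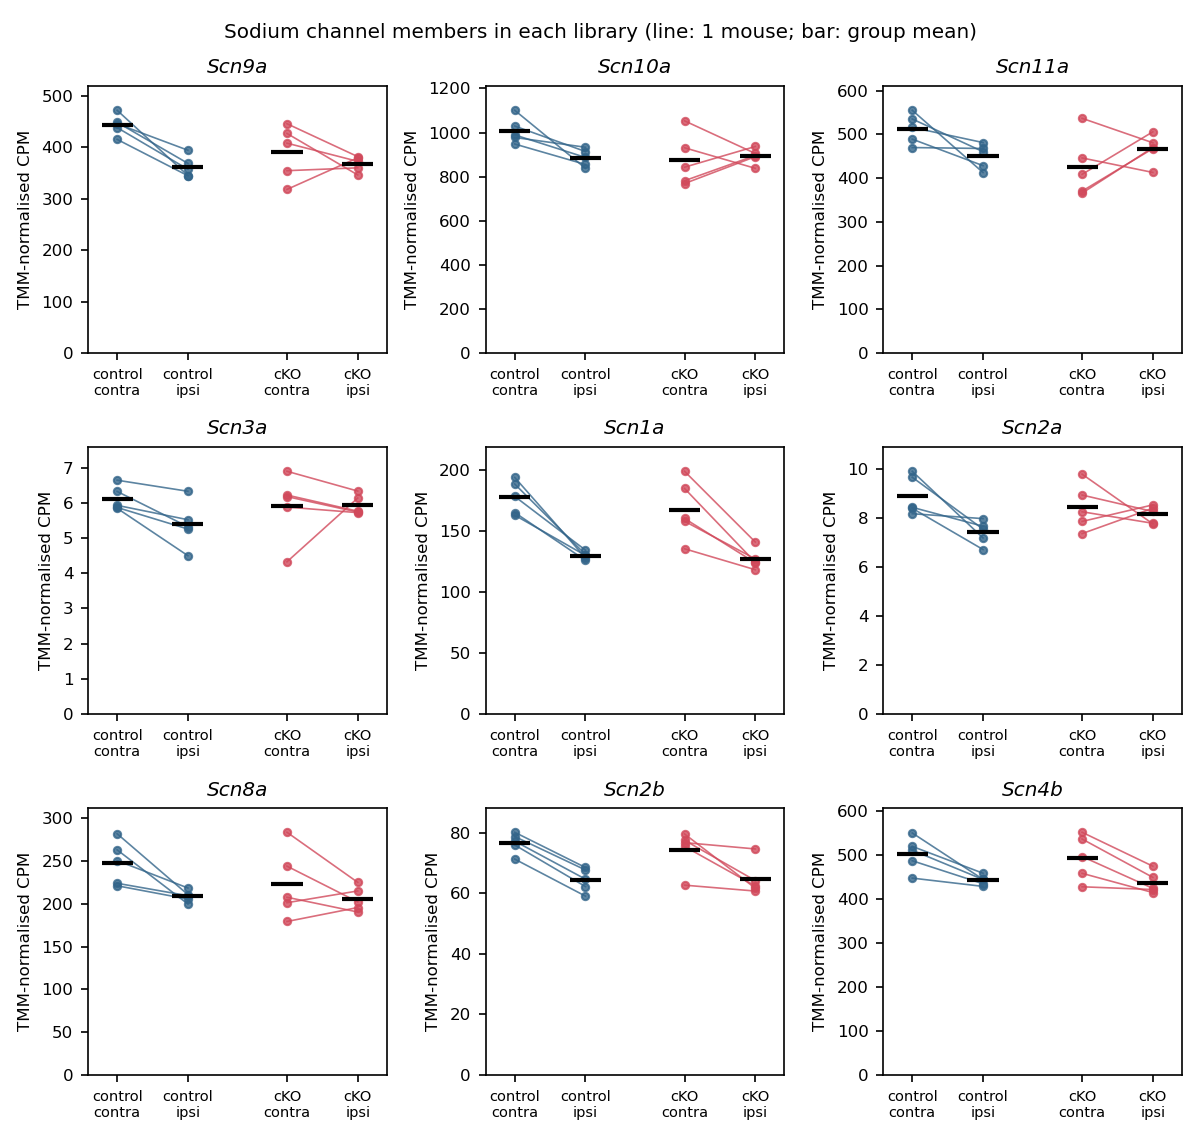
TMM-normalised CPM of each member in every library, on axes from 0, for control (blue) and cKO (red) mice; a line joins the contralateral and ipsilateral libraries of 1 mouse and black bars are group means. All 5 control lines fall in each panel, and in cKO mice all 5 fall for Scn1a, Scn2b and Scn4b.

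In cKO mice the same lesion was followed by a fall of Scn1a, Scn2b and Scn4b, while the nociceptor channels and Scn3a did not pass the test in either direction. That is 3 of 9 members called lower, where 15.1% of all tested genes were called lower and 31.3% in either direction. The fold changes of 6 members were negative, with a median of -0.09 against -0.0296 over all genes. No member had groups that did not overlap, where 20.2% of all tested genes had. In the same contrast no marker of the following cells was called: fibroblasts had 5 of 6 negative log2 fold changes (median -0.48), lymphocytes 4 of 5 (-0.40), erythroid cells 3 of 3 (-0.41), skeletal muscle 5 of 5 (-3.39), neutrophils 3 of 4 (-0.06), endothelium 3 of 5 (-0.0067), Schwann cells 4 of 8 (-0.04) and macrophages 2 of 8 (0.20). The summed skeletal muscle markers ranged from 4.45 to 1575 CPM in contralateral and from 1.97 to 108.8 CPM in ipsilateral libraries of cKO mice, highest in H100 on both sides. The part of these markers in the result was not tested. The count was 1, Scn1a, without H61 or without H100, and 4 without H99, where Scn11a was called higher beside the 3 that fell.

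Scn9a stood at 427, 318, 355, 446 and 408 CPM contralaterally and 346, 379.8, 360.3, 382 and 373 CPM ipsilaterally. The contralateral libraries spread more widely than the ipsilateral ones, with H64 lowest, and the log2 fold change was -0.09 (SE 0.0684; adjusted p = 0.376). It was -0.03 without H61, -0.04 without H99 and -0.16 without H64 (adjusted p = 0.0544). Scn10a stood at 931, 781, 769, 1053 and 843 CPM contralaterally and 838, 896, 890.5, 905 and 937 CPM ipsilaterally. H64, H95 and H100 were higher and H61 and H99 lower on the lesioned side, for a log2 fold change of 0.03 (SE 0.0668; adjusted p = 0.795), and its sign turned without H64, H95 or H100. Scn11a stood at 446, 366, 370.4, 537 and 409 CPM contralaterally and 413, 470.1, 468, 481 and 506 CPM ipsilaterally. The same 3 mice were higher and the same 2 lower ipsilaterally, for a log2 fold change of 0.14 (SE 0.0848; adjusted p = 0.247). Without H99 it was 0.23 and called (adjusted p = 0.0205), and without H64 it was 0.08.

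Scn3a stood at 5.88, 4.32, 6.89, 6.17 and 6.22 CPM contralaterally and 5.72, 6.13, 6.33, 5.73 and 5.76 CPM ipsilaterally. H64 alone was higher on the lesioned side, starting from the lowest value of Scn3a in any of the 20 libraries. The log2 fold change was 0.01 (SE 0.0958; 95% interval -0.19 to 0.21; adjusted p = 0.960), and -0.10 without H64 (adjusted p = 0.450). In the contralateral library of H64 the summed fibroblast markers were the highest of the group, 2236 CPM against a lowest of 934.8 CPM in H99; their part in the result was not tested.

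Scn1a stood at 185, 158, 135, 199 and 160.1 CPM contralaterally and 124, 127, 118, 141 and 124 CPM ipsilaterally. All 5 mice were lower on the lesioned side, with contralateral H95 inside the ipsilateral range. Scn1a fell by 0.40 on the log2 scale (SE 0.0777; adjusted p = 4.9e-04), 24.2% below the contralateral level, and was called under all 18 alternatives (-0.19 on log2(FPKM + 1)). Scn2b stood at 75.5, 62.7, 79.6, 76.8 and 77.6 CPM contralaterally and 62.5, 60.8, 61.7, 74.7 and 64.2 CPM ipsilaterally. All 5 mice were lower, H99 by the least. Scn2b fell by 0.20 (SE 0.0625; adjusted p = 0.0178), a call lost without H61 (-0.18), H95 (-0.15) or H100 (-0.18), with no filter and with only the libraries compared (both -0.18). Scn4b stood at 536, 458, 428, 552 and 497 CPM contralaterally and 449, 415, 422, 475 and 424 CPM ipsilaterally. All 5 mice were lower and the groups overlapped. Scn4b fell by 0.18 (SE 0.0617; adjusted p = 0.0324), a call lost without H61 (-0.16), H64 (-0.19) or H100 (-0.17), with no filter and with only the libraries compared (both -0.16).

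Scn8a stood at 244, 201, 179, 283 and 208 CPM contralaterally and 202, 215, 196, 225 and 190.3 CPM ipsilaterally. H64 and H95 were higher and the other mice lower on the lesioned side, and the fitted log2 fold change was -0.12 (SE 0.0956; adjusted p = 0.389). It was -0.05 without H99 and -0.08 without H61. Scn2a stood at 9.78, 7.35, 7.85, 8.92 and 8.24 CPM contralaterally and 7.75, 8.39, 8.52, 8.25 and 7.77 CPM ipsilaterally. H64 and H95 were again the mice with higher ipsilateral values, and the fitted log2 fold change was -0.05 (SE 0.0726; adjusted p = 0.654), with 0.03 without H61, -0.03 without H99, -0.09 without H95 and -0.11 without H64.

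**Figure D3:**
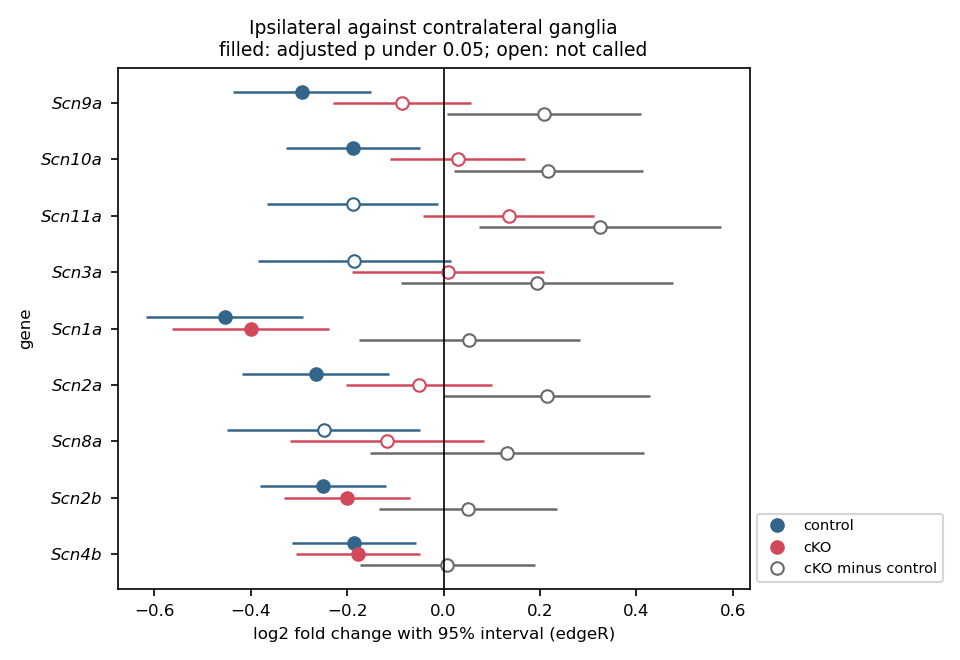
Log2 fold change of each member on the lesioned side in control and cKO mice and the difference between these responses (cKO minus control), with 95% intervals from edgeR; filled circles passed an adjusted p of 0.05. Scn1a, Scn2b and Scn4b are filled in both genotypes, and no difference between the genotypes is filled.

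The difference of the responses was tested as the interaction of genotype and injury. No member passed (lowest adjusted p 0.485, Scn11a), as none of the 28564 genes did (0% called by edgeR; 2799 at an unadjusted p under 0.05, and 11 genes by DESeq2). Of the members, 4 had an unadjusted p under 0.05: Scn11a, with a difference in log2 fold change of 0.32 (SE 0.120; 95% interval 0.07 to 0.58), Scn10a with 0.22 (SE 0.0944), Scn2a with 0.21 (SE 0.103) and Scn9a with 0.21 (SE 0.0968). With a mouse left out, Scn11a ran from 0.26 (H97) to 0.41 (H99, edgeR adjusted p = 0.0712). Scn10a ran from 0.16 (H97) to 0.29 (H99, edgeR adjusted p = 0.0962). The ranges were 0.16 (H96) to 0.29 (H61) for Scn2a and 0.13 (H64) to 0.26 (H61) for Scn9a. DESeq2 called no member. The interaction values of the markers of fibroblasts (6, median -0.78), macrophages (8, median -0.33), neutrophils (4, median -0.69), endothelium (5, median -0.25), Schwann cells (8, median -0.09), erythroid cells (3, median -0.44) and skeletal muscle (5, median -3.78) were all negative, 2 of 5 lymphocyte markers were negative (median 0.10), and none of these was called; their part was not tested. Nociceptor markers had positive interaction values in 8 of 10 (median 0.15) and sensory neuron markers in 5 of 11 (-0.05). Those of large-fibre mechanoreceptors and proprioceptors were positive in 3 of 8 (-0.07). None of these was called, and their part was not tested. For Scn1a, Scn2b and Scn4b the difference was 0.05, 0.05 and 0.01, with intervals of -0.18 to 0.28, -0.13 to 0.23 and -0.17 to 0.19. Thus a member called in control and not in cKO mice was not shown to differ between them.

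Scn3a was then set against the nociceptor channels within each library, as log2 of its CPM over the geometric mean of Scn9a, Scn10a and Scn11a. The log2 ratio was -6.65 ± 0.0882 in control contralateral, -6.61 ± 0.149 in control ipsilateral, -6.48 ± 0.259 in cKO contralateral and -6.50 ± 0.0949 in cKO ipsilateral libraries (SD, n = 5). The ratio is of CPM, not per length, and serves to compare libraries. Within mice it changed by 0.04, 0.11, 0.06, -0.24 and 0.18 from the contralateral to the ipsilateral side in control mice, a mean of 0.03 ± 0.158. In cKO mice it changed by 0.15, 0.23, -0.31, 0.09 and -0.22, a mean of -0.01 ± 0.240. The ratio was higher ipsilaterally in 4 of 5 control and 3 of 5 cKO mice. Its mean change was small beside the SD of single mice, which does not measure the uncertainty of a mean over 5 mice. The change was not tested, so a modest shift of Scn3a relative to the nociceptor channels was neither shown nor excluded.

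Between genotypes, no member passed the test on either side. Contralaterally 0 of 9 members were called, where 0.0735% of all genes (21) were; 3 had an unadjusted p under 0.05, as did 17.5% of all genes (5006). DESeq2 called Scn11a (-0.26, adjusted p = 0.0415) among 1041 genes. Those 3 were the nociceptor channels: Scn11a with a log2 fold change of -0.27 (SE 0.0849; adjusted p = 0.131), Scn10a with -0.21 (SE 0.0668; adjusted p = 0.138) and Scn9a with -0.18 (SE 0.0685; adjusted p = 0.177). The mean levels in control and cKO libraries were 513 ± 34.3 and 426 ± 70.2 CPM for Scn11a, 1009 ± 59.1 and 875 ± 118 CPM for Scn10a and 444 ± 20.4 and 391 ± 53.0 CPM for Scn9a (SD, n = 5). The cKO library of H99 lay within the control range for each of these 3, and without H99 they were called (-0.37, -0.28 and -0.23, adjusted p = 0.00465, 0.00557 and 0.0330), as was Scn8a (-0.25, adjusted p = 0.0475); without H99 the genes called in all rose from 21 to 3326 of those tested. Without H64 none was called (Scn11a -0.22, Scn10a -0.17 and Scn9a -0.12).

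No marker of fibroblasts, macrophages, neutrophils, endothelium, erythroid cells or skeletal muscle was called in this contrast, and the sign of each is given as a description. The 6 fibroblast markers were all positive in cKO contralateral libraries, with a median log2 fold change of 0.81; their summed level was 801.6 to 1356 CPM in control and 934.8 to 2236 CPM in cKO libraries. H99, which had the highest Scn8a, Scn9a, Scn10a and Scn11a of the cKO contralateral libraries, had the lowest of these sums and the highest sum of sensory neuron markers, 12064 CPM. The 8 macrophage and 4 neutrophil markers were also all positive, with medians of 0.24 and 0.77, as were the 5 endothelium (0.12), 3 erythroid (0.42) and 5 skeletal muscle markers (1.43). Of the lymphocyte markers 4 of 5 were negative (-0.50) and of the Schwann cell markers 3 of 8 (0.03), none called. Nociceptor markers were negative in 8 of 10 (median -0.12) and sensory neuron markers in 8 of 11 (-0.02). Those of large-fibre mechanoreceptors and proprioceptors were negative in 6 of 8 (-0.04), and none of these was called. Their part in the result was not tested. The other 6 members had contralateral log2 fold changes of -0.15 (Scn8a), -0.09 (Scn1a), -0.08 (Scn2a), -0.05 (Scn3a), -0.04 (Scn2b) and -0.03 (Scn4b), with adjusted p of 0.430 or more. With a mouse left out these ran from -0.25 (H99) to -0.07 (H95) for Scn8a and from -0.14 (H61) to -0.03 (H64 or H96) for Scn2a, and from -0.15 (H99) to -0.0015 (H95) for Scn1a. All cKO ranges overlapped the control ranges, where 1.52% of all genes did not.

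On the ipsilateral side 0 of 9 members were called, where 0.00700% of all genes (2) were, and 0 had an unadjusted p under 0.05; DESeq2 called none. Log2 fold changes ran from -0.03 (Scn1a) to 0.14 (Scn3a and Scn2a). Scn3a had 5.38 ± 0.654 and 5.94 ± 0.280 CPM in control and cKO ipsilateral libraries (95% interval of the log2 difference -0.06 to 0.34). Scn10a had 885 ± 39.6 and 893 ± 35.8 CPM, and its interval was -0.13 to 0.15. No member's groups failed to overlap, where 0.599% of all genes' did.

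**Figure D4:**
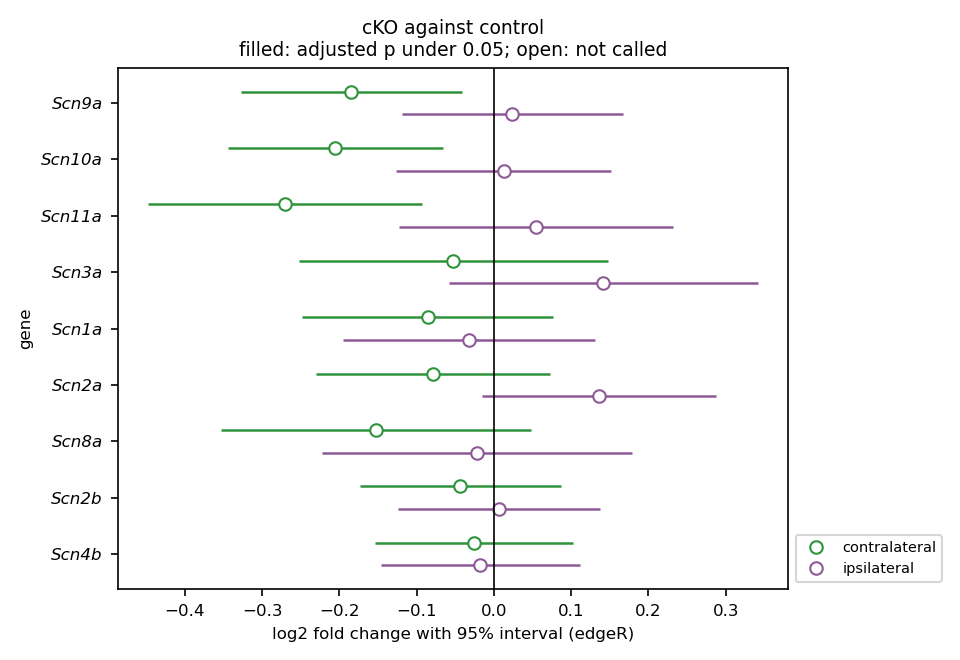
Log2 fold change of each member in cKO against control mice, with 95% intervals from edgeR, on the contralateral (green) and ipsilateral (purple) side; all circles are open, since none passed an adjusted p of 0.05. Contralaterally the intervals of Scn9a, Scn10a and Scn11a lie below 0, and ipsilaterally every interval spans 0.

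Because the targeted gene encodes a transcription factor, the promoters were searched for the core of its DNA element, GCGTG on either strand. In RefSeq promoters on GRCm38.p6, running from 250 bases before to 50 after each start, 8 of the 9 members, all but Scn3a, had an entry, 10 promoters in all, and 3 members held the letters: Scn4b, Scn10a and Scn8a (in both of its promoters). Of 32851 promoters of that length, 32.4% held them. The matches are shown with 10 bases on each side and the core in capitals, on the strand of the gene.
Scn4b: caagccggcaCACGCccaccggctg
Scn10a: acccacgaagGCGTGattccttgta
Scn8a, first promoter: cggtgaccggGCGTGcccgggagca
Scn8a, second promoter: tgaggatgaaGCGTGcggaagtgga
The windows are at chr9:45138389-45138413, chr9:119719073-119719097 on the minus strand, chr15:100870475-100870499 and chr15:100936138-100936162. A match is a description of letters, and none of these 3 genes was called between genotypes. None of these 10 promoters held the AP-1 element TGANTCA, present in 7.81% of promoters, or the CRE element TGACGTCA, present in 1.79%, on either strand; these are elements of factors active after axon injury.

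The other sodium channel subunits were put to the same test. In control mice 4 of 6 fell, among them Scn4a, the skeletal muscle alpha subunit, by 0.39 on the log2 scale, Nalcn, a sodium leak channel, by 0.28, and the beta subunit Scn3b by 0.22, where 16.0% of all genes were called lower. In cKO mice 1 of 6, Scn4a, fell, by 0.36 (adjusted p = 0.0449), where 15.1% of all genes were called lower. Markers of skeletal muscle, the tissue in which Scn4a is the main channel, summed to 7.97 to 340.7 and 5.60 to 587.7 CPM in control and to 4.45 to 1575 and 1.97 to 108.8 CPM in cKO libraries, contralateral and ipsilateral; their part was not tested. Scn7a, an atypical alpha subunit, had -0.11 and 0.06, neither called.

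Of 25 partners and regulators of the channels, 7 fell and 3 rose in control mice (median log2 fold change -0.08, where 16.0% of all genes were called lower and 13.8% higher), and 5 fell and 2 rose in cKO mice (median -0.01, where 15.1% were called lower and 16.2% higher). Called in both were Tmem233, a nociceptor membrane protein known to bind NaV1.7 (-0.27 and -0.20), the intracellular channel-binding factors Fgf12 (-0.18 and -0.15) and Fgf13 (-0.16 and -0.15), Pdzd2, a scaffold protein (-0.15 and -0.16), and Fgf11 (0.37 and 0.36), another channel-binding factor. Rest, a repressor of neuronal genes that include sodium channels, had the highest rise in control mice, 0.45 (adjusted p = 7.7e-04), from 7.97 ± 0.846 to 10.9 ± 0.683 CPM. Its value in cKO mice was 0.24 (adjusted p = 0.0602). Fgf14, a channel-binding factor, had the lowest fold change in cKO mice, -0.69 (adjusted p = 0.00191), from 2.34 ± 0.648 to 1.45 ± 0.118 CPM, and -0.33 in control mice (adjusted p = 0.135). Magi1, a scaffold protein, fell by 0.27 in control mice, and Cntn2, an adhesion protein beside the nodes of Ranvier, rose by 0.30 in cKO mice (adjusted p = 2.6e-04 and 0.00707). Nedd4l, a ubiquitin ligase that removes NaV1.7 from the membrane, fell by 0.21 in control mice (adjusted p = 0.00795) and was at 0.02 in cKO mice. None of the 25 was called between genotypes or in the interaction.

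Markers of neurons, of neuron classes and of satellite glia were counted by the same rule, by which 16.0% of all genes were called lower and 13.8% higher in control mice, and 15.1% lower and 16.2% higher in cKO mice. Of 11 sensory neuron markers 4 fell in control mice (Elavl4, Isl1, Pou4f1 and Rbfox3; median log2 fold change -0.02) and 3 in cKO mice (Isl1, Rbfox3 and Snap25; median -0.10). Of 10 nociceptor markers 3 fell in control mice (Gfra2, Mrgprd and Prdm12), and in cKO mice 3 fell (Calca, Gfra2 and Prdm12) and 3 rose (P2rx3, Plxnc1 and Trpa1), with a median of -0.04 in both. Of 8 markers of large-fibre mechanoreceptors and proprioceptors, 3 fell and 1 (Heg1) rose in each genotype: Cntnap2, Runx3 and Whrn fell in control mice (median -0.10) and Pvalb, Runx3 and Whrn in cKO mice (median -0.14). Of 6 satellite glia markers 3 rose in control and 2 in cKO mice, with Glul and Kcnj10 among them in both.

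The genes whose pattern over the 20 libraries was most like that of Scn3a, by the root mean square difference of centred log2 CPM over 11903 genes, were Ptprn2 (0.103), Adcy5 (0.109), Arhgef28 (0.111), Mrgpre (0.112) and Nup205 (0.113), against a median of 0.191. Those most like Scn10a were Nedd4l (0.0429), Zfp462 (0.0432), Srgap3 (0.0443), Gnaq (0.0464) and Robo2 (0.0475), against a median of 0.162. Among the members the most alike pair was Scn10a and Scn11a, at 0.0613, followed by Scn10a and Scn9a, at 0.0766. The measure depends on a gene's counting noise, which is larger for Scn3a than for Scn10a.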

How the data were processed

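Exonic read counts per gene were deposited as whole numbers, without normalization, in 1 column per library for 20 libraries. FPKM were deposited by the authors as a second table of the same libraries; for 8 of 9 members the length that links them to the counts equals the gene span with introns in GENCODE M21, so they understate long genes and served only as alternatives, on log2(FPKM + 1) and log2(FPKM + 0.1). Libraries were stranded mRNA libraries per the labels' protocols. HISAT2 and Picard, and the builds mm10 and mm39, are named in the submitters' processing notes without versions or roles; the counting program and its strand and multi-mapping settings are not given in the sources used here, so reads from stretches shared by related channel genes may be split or lost. Coordinates are those of the GRCm38 annotation and RefSeq GRCm38.p6.

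Symbols came from GENCODE M21 (51487 of 78258 identifiers; 98.1% of counts). Counts were fitted with edgeR 4.0.16 in R 4.3.3 (filterByExpr with a minimum count of 10, TMM, robust quasi-likelihood test) in 1 model with 4 group means over all 20 libraries, and adjusted by Benjamini-Hochberg over 28564 genes in each of 5 comparisons; genes with an adjusted p under 0.05 are called. On simulated data with the control design, over 28205 genes, 22 of 50 genes changed 1.25-fold, 40 of 50 changed 1.5-fold and 48 of 50 changed 2-fold were recovered. Only 200 genes were changed there, while 29.9% of all tested genes were called after injury in control mice. These recoveries therefore do not give the power of the test on the members. Counts of replicate pairs differed beyond sampling noise (40 pairs, chi-square per degree of freedom from 5.33 to 58.9). These are values over all genes, and the part of counting noise in the spread of Scn3a was not tested.

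Both libraries of a mouse carry its number in the labels, which pairs them; their deviations from the group means correlated with a median of 0.186 over 10 mice (-0.0546 to 0.361; 7 over 0.1). Alternatives were the mouse as a replicate block, DESeq2 1.42.0, RLE size factors, a filter at a mean of 1 CPM or none, only the libraries compared, limma 3.58.1 on FPKM, and leaving out each mouse. The text names the members, Ahr, Atf3 and Thy1 as checks, other subunits and partners called in both injury comparisons or with the 2 highest or lowest fold changes, and the 5 genes most like Scn3a and Scn10a; Scn7a, Nedd4l, Scn3b, Nalcn and marker genes are named to account for short counts, after their values were seen. Some listed genes and a sequence are not reported here. The members and lists were chosen with earlier results of these data known. Thy1, whose promoter drives the transgene, was higher in cKO libraries by 0.77 contralaterally and 0.63 ipsilaterally (log2).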

Additional observations from a re-analysis of the deposited data

Results flagged for a closer look

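Within groups of 5, the gap of the highest or lowest sample to its nearest neighbour was divided by the range of the group, for 54 groups of member values; 3 exceeded the critical value of 0.71, where chance gives 2.7.

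In the response of Scn3a in cKO mice, H64 stood apart with a gap of 0.867 of the range: it rose by 0.50 on the log2 scale, while the other mice were at -0.12 to -0.04. In the contralateral libraries of cKO mice H64 also had the lowest Scn2b, 62.7 CPM against 75.5 to 79.6 CPM (0.756 of the range). In the ipsilateral libraries of cKO mice H99 had the highest Scn2b, 74.7 CPM against 60.8 to 64.2 CPM (0.751 of the range).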

How the results depend on the processing

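With the mouse as a replicate block 7 members were called in control mice, Scn8a being added, and 3 in cKO mice; the block changed no other member's call. In control mice the number of members called was 3 to 8 when each mouse was left out in turn, 4 with no filter, and 8 with only the libraries compared or with limma on FPKM. In cKO mice it was 1 to 4, and 1 without a filter or with only the libraries compared. Between genotypes on the contralateral side members called were 0 to 4 with a mouse left out (4 without H99) and 1 with DESeq2. All genes called there were 50 with no filter, 45 with one at a mean of 1 CPM, 2 with only the libraries compared, 1041 with DESeq2, 6 and 7 with limma on FPKM (pseudocounts of 1 and 0.1), and 4 to 3326 with a mouse left out. The interaction gave 11 genes with DESeq2 and 0 to 43 with a mouse left out, and has no separate fit to only the libraries compared. The cause was not tested.

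Signs turned only in fold changes that were not called. Scn3a after injury in cKO mice was -0.000715 and -0.00342 with limma on FPKM. With a mouse left out, the ranges after injury in cKO mice were -0.107 to 0.0254 for Scn2a, -0.0958 to 0.0523 for Scn3a and -0.0103 to 0.104 for Scn10a; between genotypes contralaterally -0.0985 to 0.0403 for Scn3a, -0.0686 to 0.0121 for Scn2b and -0.0657 to 0.0393 for Scn4b; ipsilaterally -0.0548 to 0.00487 for Scn8a, -0.00524 to 0.0347 for Scn10a, -0.0487 to 0.0315 for Scn2b and -0.0481 to 0.000643 for Scn4b; and in the interaction -0.00288 to 0.0990 for Scn1a and -0.0410 to 0.0364 for Scn4b. Scn3a had the fewest counts of the members, 341 to 724 per library, so its counting noise is the largest relative to its level. The part of that noise in its spread was not tested.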
